A study of Callithrix jacchus with 4 samples.

Results

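The mitochondrial ribosomal proteins were taken as every gene of the deposited count table whose symbol begins with MRPL or MRPS followed by a digit. There were 77 such genes among 35205, with 49 MRPL and 28 MRPS symbols. RNA-seq had been carried out on brain of the common marmoset (Callithrix jacchus) at postnatal day 5, with 2 libraries for the wild type and 2 for FMR1 mutants, which were produced by CRISPR/Cas9 editing. The study's design text speaks of forebrain, with cortex, striatum and hippocampus, while each library is labelled only as brain. The labels used here state neither the kind of FMR1 mutation nor the sex or litter. They also leave unsaid whether the replicates are different animals, and the p-values then reflect only the spread among these 4 libraries, which may be technical. The comparison asked how transcript levels differ in newborn brain that carries a mutation in FMR1, the gene of the RNA-binding protein lost in fragile X syndrome.

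Mitochondria keep their own ribosome, which translates only the few respiratory chain proteins encoded in mitochondrial DNA. Its RNAs come from mitochondrial DNA, but all of its proteins are encoded in the nucleus, made in the cytosol and imported. Many are counterparts of bacterial ribosomal proteins, and others are found only in mitochondria. Inherited defects in several of them cause respiratory chain deficiency, often with disease of the brain or heart.

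The symbols do not map exactly onto the subunits. By structure, 51 of the 77 belong to the large subunit, which forms peptide bonds. These are all 49 MRPL proteins together with MRPS30 and MRPS18A. Another 25 belong to the small subunit, which decodes the mRNA. MRPS36, despite its name, is a part of the 2-oxoglutarate dehydrogenase complex and not of the ribosome. Within the large subunit 30 have bacterial counterparts and 21 are specific to mitochondria. In the small subunit the numbers were 15 and 10, with no row for MRPS17.

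Total counts were between 12331639 and 13455702 per library, and all 77 genes passed the filter on low counts. Neuron markers, of which 7 of 8 have a row, summed to between 7237 and 7734 CPM (counts scaled to a common library size by edgeR's cpm) in every library. Wild-type replicate 1 stood apart in TCF7L2, a thalamic marker, with 1272 counts against 118 to 139 in the other 3. All 13 myelin and oligodendrocyte markers fell in the mutant libraries, from a summed 3624 to 3709 CPM in wild-type to 1364 to 1415 CPM. Of other markers, 2 of 8 for astrocytes, 2 of 8 for oligodendrocyte precursors and 3 of 8 for microglia fell, and 2 of 6 for newborn neurons rose. Of the 7 neuron markers 2 fell, NEFL (-0.49) and NEFM (-0.48), and 6 had a log2 fold change below 0. The other, STMN2 (0.31, adjusted p = 0.141, edgeR), was 2560 and 2232 CPM in wild-type and 3059 and 2902 CPM in mutant libraries. The sum over the 7 was level only with STMN2 included. At the same adjusted p of 0.05 by edgeR, 1.57% of all genes tested fell and 0.661% rose. The part of these markers in the results on the mitochondrial ribosome was not tested. In bulk tissue, fewer cells of a type and less RNA per cell cannot be told apart. FMR1 RNA itself was 86.3 and 78.6 CPM in wild-type and 81.1 and 119 CPM in mutant libraries, which overlap (adjusted p = 0.445, edgeR).

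No mitochondrial ribosomal protein gene passed the test between FMR1 mutant and wild-type brain. Of the 77, 0 rose and 0 fell at an adjusted p of 0.05 (edgeR's quasi-likelihood test, Benjamini-Hochberg adjustment over all 16956 genes tested), where 2.23% of all genes tested passed (0.661% higher, 1.57% lower). DESeq2 and limma-voom called 0 as well. At an unadjusted p under 0.05 there were 2 by edgeR, both higher in the mutant libraries, against 13.4% of all genes in either direction, 5.64% higher and 7.75% lower. DESeq2 gave 1 and voom 3 at that level. The smallest adjusted p of any member was 0.188, for MRPL40. On simulated counts the edgeR test recovered 23.9% of genes given a log2 fold change of 0.5, so changes of the members' size could be missed.

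The intervals of the members were narrow, but they rest mostly on variance shared across genes. The 4 libraries gave 2 residual degrees of freedom, beside a median of 31.6 from the prior that edgeR fits over genes. The intervals therefore describe these libraries, which may be technical replicates. For all 77 genes the 95% interval of the log2 fold change (mutant over wild-type throughout) lay within 1 unit of 0, that is, within a doubling or a halving. For 56 of them it lay within 0.5. Among all genes tested, 76.6% had an interval within 1 unit. The log2 fold changes of the members ran from -0.38 for MRPS12 to 0.41 for MRPL40, with an SD of 0.15 across the 77 genes. The 10242 genes tested that fell in the members' range of mean abundance, 4.63 to 92.5 CPM, had an SD of 0.31.

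**Figure D1:**
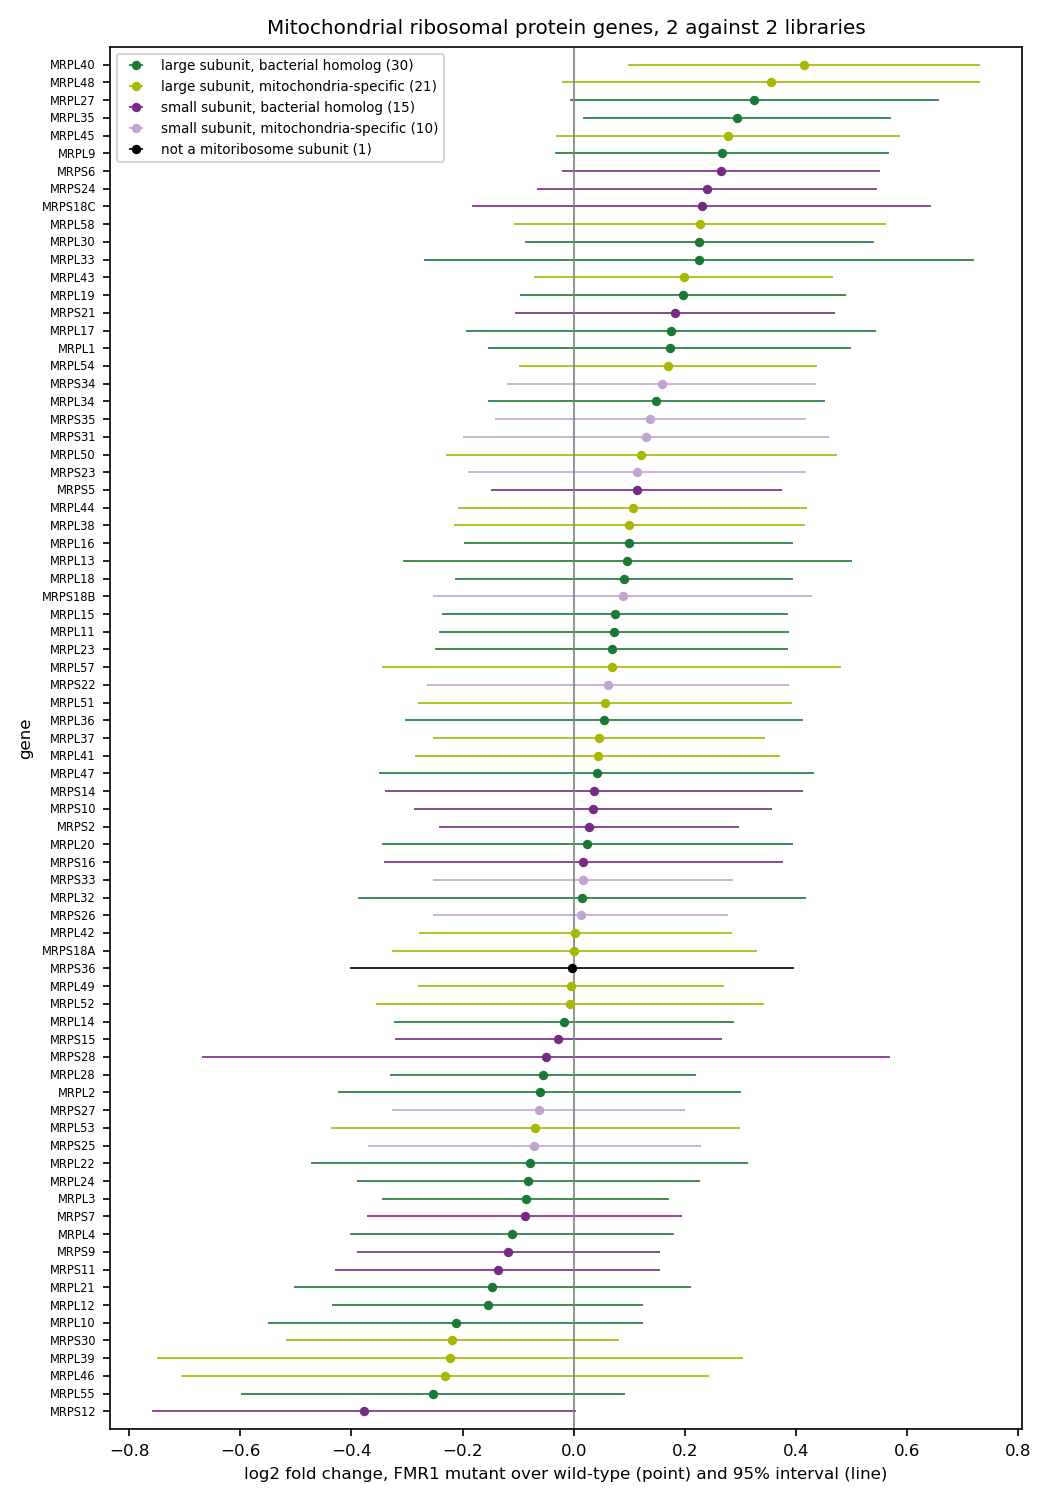
Log2 fold change of each of the 77 genes, FMR1 mutant over wild-type (horizontal axis; points), with its 95% interval (lines), ordered by size and coloured by place in the ribosome. The points run from -0.38 to 0.41, and the intervals of 75 genes include 0.

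The members lay slightly to the mutant side as a group. Log2 fold changes were above 0 for 51 genes and below 0 for 26, so 66.2% were above 0, beside 49.3% of all genes tested. The median was 0.04, beside -0.00 for all genes tested. In 18 members both mutant libraries were above both wild-type libraries, and in 7 both were below. These are 23.4% and 9.09% of the members, where 21.4% and 21.8% of all genes tested did so (43.1% in either direction). The share above was thus close to the background, and the share below was under it.

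This lean depended on single libraries. Without mutant replicate 1 the median log2 fold change was -0.04 and 34 of 77 genes were above 0. Without wild-type replicate 1 the median was 0.02 and 41 were above 0. Leaving out wild-type replicate 2 gave 0.07 and 52 genes, and leaving out mutant replicate 2 gave 0.15 and 60 genes. In 25 genes the fold change stayed above 0, and in 11 below 0, whichever library was left out, and 41 changed sign at least once. Each of these 4 fits left a group with 1 library, so only fold changes are compared here.

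Mutant replicate 1 held the most mitochondrial ribosomal protein RNA of the 4 libraries. The 77 genes summed to 2550 and 2625 CPM in wild-type replicates 1 and 2 and to 2851 and 2516 CPM in mutant replicates 1 and 2. The wild-type mean was 2587 ± 53.2 CPM (SD, n = 2). The mutant mean was 2683 ± 237 CPM (SD, n = 2), so the difference was smaller than the spread within the mutant group. By these sums the mutant libraries lay at the top and at the bottom, with both wild-type libraries between them. Gene by gene, 29 members (37.7%) were lowest in wild-type replicate 1 and 27 (35.1%) in mutant replicate 2. Of all genes tested, 25.4% and 22.8% were lowest in these libraries. Of the 77 genes, 45 (58.4%) were highest in mutant replicate 1, against 26.7% of all genes tested, and 64 were higher there than in mutant replicate 2. Between the wild-type libraries 51 genes were higher in replicate 2.

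Other lists moved with this library too. Of 63 nuclear-encoded genes tested in the respiratory chain list, 63 were higher in mutant replicate 1 than in mutant replicate 2, as were 73 of 74 cytosolic ribosomal proteins. The respiratory chain list was drawn by symbol and is mostly complex I and ATP synthase genes, ATP5IF1 and NDUFA4L2 included. Of its UQCR and COX symbols only UQCR10, UQCRQ, COX8A and COX6B2 were tested. The median log2 ratio of mutant replicate 2 over replicate 1 was -0.22 for the mitochondrial ribosomal proteins, -0.25 for the respiratory chain and -0.31 for the cytosolic ribosomal proteins. Over all genes tested it was 0.00. The summed myelin markers were 1415 and 1364 CPM in mutant replicates 1 and 2, and the newborn neuron markers 4120 and 4097 CPM. Single newborn neuron markers differed in opposite directions, with DCX at 446 and 540 CPM and STMN1 at 1476 and 1374 CPM. Astrocyte markers summed to 3538 and 3887 CPM, neuron markers to 7448 and 7506 CPM and microglia markers to 129 and 87.5 CPM. The erythroid gene ALAS2 was counted 58 times in mutant replicate 1 and 13 to 25 times in the others. Only 2 of 6 blood markers have a row, and the other, SLC4A1, had at most 1 count. Their part in the result was not tested.

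**Figure D2:**
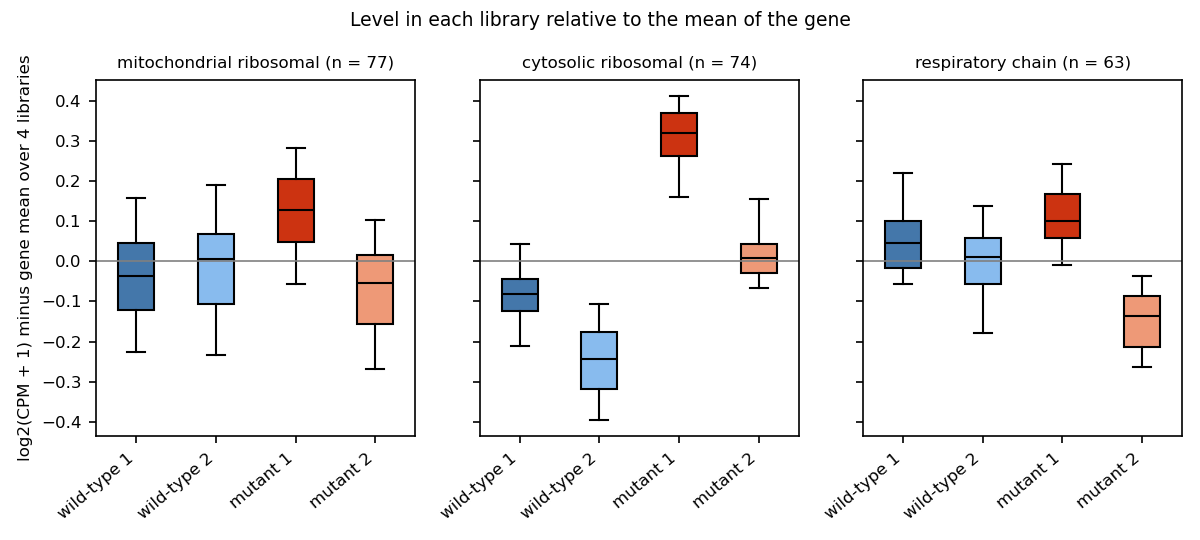
Log2(CPM + 1) in each library minus the mean of the gene over the 4 libraries (vertical axis), for 77 mitochondrial ribosomal, 74 cytosolic ribosomal and 63 respiratory chain genes. Boxes show quartiles with the median and whiskers the 5th to 95th percentile. By median, mutant replicate 1 is the highest library in each panel, and the mitochondrial and respiratory panels have mutant replicate 2 as the lowest.

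The subunits had similar medians. The large subunit had 34 of 51 genes above 0 with a median log2 fold change of 0.06, and the small subunit 17 of 25 with a median of 0.03. By origin the medians were 0.06 for large-subunit proteins with bacterial counterparts and 0.06 for those specific to mitochondria. In the small subunit they were 0.03 and 0.07. The ratio of summed large-subunit to small-subunit CPM was 1.65 and 1.64 in wild-type and 1.69 and 1.62 in mutant replicates 1 and 2. The wild-type ratios lay between the mutant ones, so the groups overlap.

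Among large-subunit genes with higher values in the mutant libraries, MRPL40 had the smallest p. It encodes a mitochondria-specific protein, and its gene lies in the segment lost in human DiGeorge syndrome. It was 22.7 and 25.3 CPM in wild-type and 32.4 and 31.5 CPM in mutant replicates 1 and 2. The groups were apart by more than the spread within them. The log2 fold change was 0.41 (SE 0.16, 95% interval 0.10 to 0.73, unadjusted p = 0.0120), which did not pass after adjustment over all genes (adjusted p = 0.188). It was between 0.34 and 0.50 when any 1 library was left out.

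MRPL35, a counterpart of a bacterial large-subunit protein, was the other gene at an unadjusted p under 0.05. It was 40.9 and 42.9 CPM in wild-type and 52.3 and 50.4 CPM in mutant libraries (log2 fold change 0.29, SE 0.14, adjusted p = 0.335). In both MRPL40 and MRPL35 the mutant libraries were close to each other and above both wild-type libraries. Both were named for their small p, which favours such separation, and groups did not overlap in 43.1% of all genes tested.

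MRPL27, whose bacterial counterpart reaches towards the site of peptide bond formation, was 21.6 and 22.6 CPM in wild-type and 30.2 and 25.2 CPM in mutant libraries. MRPL48, a mitochondria-specific protein of the central protuberance, was 15.2 and 13.4 against 19.2 and 17.4 CPM. Their log2 fold changes were 0.33 (SE 0.16) and 0.35 (SE 0.18), with adjusted p = 0.384 and 0.409. In both genes the groups did not overlap, and mutant replicate 1 was the highest library.

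MRPL45, which tethers the ribosome to the inner membrane near the exit of the new protein, was 28.6 and 34.3 CPM in wild-type and 41.5 and 34.7 CPM in mutant libraries. Its higher wild-type library came within 0.5 CPM of the lower mutant library. MRPL9, a counterpart of a bacterial protein at the base of the L1 stalk, was 40.584 and 32.5 against 47.4 and 40.587 CPM. For MRPL9 the groups met within rounding, and the log2 fold change was 0.27 (adjusted p = 0.451). MRPL33, the large-subunit gene with the fewest counts, was 7.39 and 6.76 against 8.02 and 8.53 CPM (0.23, SE 0.24).

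Among large-subunit genes with lower mean values in the mutant libraries, MRPL10, at the base of the stalk that recruits translation factors, was 37.9 and 29.8 CPM in wild-type and 33.6 and 24.9 CPM in mutant libraries. MRPL12, which forms the arms of the stalk, was 56.7 and 62.3 against 59.2 and 47.6 CPM. In both genes mutant replicate 2 was the lowest library and mutant replicate 1 lay within the wild-type range. The log2 fold changes of -0.21 (SE 0.17, adjusted p = 0.638) and -0.16 (SE 0.14, adjusted p = 0.693) were -0.01 and -0.00 without mutant replicate 2, and that of MRPL10 was -0.03 without wild-type replicate 1.

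MRPL55 was 22.6 and 23.6 CPM in wild-type and 21.1 and 17.7 CPM in mutant libraries (-0.25, SE 0.17, adjusted p = 0.567). MRPS30, a large-subunit protein in spite of its symbol and once described as a death-associated protein, was 37.2 and 38.7 against 30.3 and 34.9 CPM (-0.22, SE 0.15, adjusted p = 0.567). Unlike most members, MRPS30 was lowest in mutant replicate 1. MRPL3, the most counted member, was 99.7 and 90.8 against 98.0 and 81.5 CPM, with overlapping groups (-0.09, SE 0.13).

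In the small subunit the lowest value was that of MRPS12, whose bacterial counterpart lies in the decoding centre. It was 18.2 and 18.7 CPM in wild-type and 16.0 and 12.5 CPM in mutant libraries. The groups did not overlap, with mutant replicate 2 the lowest. The log2 fold change was -0.38 (SE 0.19, unadjusted p = 0.0528, adjusted p = 0.3797), and it ranged from -0.57 to -0.21 with 1 library left out. In the RefSeq annotation (assembly calJac240) its neighbour is SARS2, the mitochondrial seryl-tRNA synthetase, which had a log2 fold change of 0.30 (SE 0.21, adjusted p = 0.595).

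MRPS9, a protein of the small-subunit head, was 56.7 and 54.3 CPM in wild-type and 54.2 and 48.2 CPM in mutant libraries (-0.12, SE 0.13). MRPS11 was 41.0 and 42.9 against 41.8 and 34.6 CPM (-0.14, SE 0.14). It is the annotated neighbour of MRPL46, which encodes a large-subunit protein, and these are the only members that adjoin each other there. MRPL46 was 9.35 and 9.44 against 7.25 and 8.76 CPM (-0.23, SE 0.23). Neither passed (adjusted p = 0.751 and 0.738), and their lowest libraries differed, mutant replicate 2 for MRPS11 and mutant replicate 1 for MRPL46.

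On the other side, MRPS6 was 38.8 and 46.1 CPM in wild-type and 53.9 and 48.0 CPM in mutant libraries (0.26, SE 0.14, adjusted p = 0.422). MRPS24, a counterpart of a bacterial protein at the mRNA entry, was 33.6 and 33.7 against 44.7 and 34.7 CPM (0.24, SE 0.15, adjusted p = 0.524). Its wild-type libraries were nearly equal, and the difference lay mainly in mutant replicate 1, without which it was 0.05. MRPS34, the most counted small-subunit gene and mutated in Leigh syndrome, was 56.4 and 69.4 against 76.4 and 63.9 CPM, with overlapping groups. MRPS28, the least counted member, had 72, 49, 65 and 56 counts, wild-type first (-0.05, SE 0.30, interval -0.67 to 0.57).

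**Figure D3:**
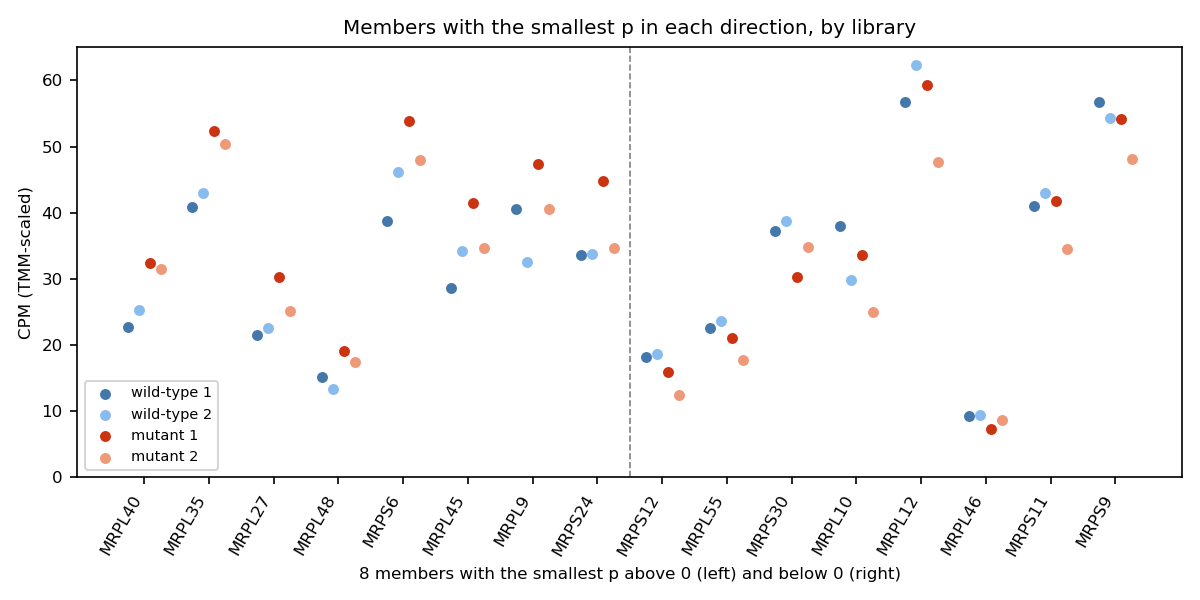
CPM in each of the 4 libraries (vertical axis) for the 8 genes with the smallest p above 0 (left of the dashed line) and the 8 below 0 (right). Points are single libraries. On the left mutant replicate 1 is the highest library for every gene, and on the right mutant replicate 2 is the lowest for 6 of 8.

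The genes that share the MRPS18 name sit at different places in the ribosome. MRPS18C, the small-subunit protein closest to the bacterial one, was 12.2 and 12.1 CPM in wild-type and 16.3 and 12.3 CPM in mutant libraries (0.23, SE 0.20). MRPS18B, also of the small subunit, was 30.3 and 25.3 against 34.4 and 24.9 CPM (0.09, SE 0.17). MRPS18A, of the large subunit, was 26.7 and 26.2 against 29.3 and 23.7 CPM (0.00, SE 0.16, adjusted p = 0.998). All of these were highest in mutant replicate 1. MRPS36 was 13.7 and 14.7 against 15.8 and 12.5 CPM, with a log2 fold change of -0.00 (SE 0.20).

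Of the 18 members whose mutant libraries were both higher, those beside the 8 of smallest p were MRPL15, MRPL33, MRPL43, MRPL44, MRPL50, MRPL58, MRPS5, MRPS18C, MRPS22 and MRPS31. Among them MRPL58, which frees stalled peptides from the ribosome, was 26.8 and 20.7 CPM in wild-type and 28.2 and 27.5 CPM in mutant libraries. MRPL43 was 53.8 and 62.4 against 68.7 and 64.5 CPM. Of the 7 with both lower, MRPS7 and MRPL24 were the members outside the 8 of smallest p.

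The fold between a gene's highest and lowest library had a median of 1.28 over the 77 genes. It was smallest for MRPL14 (1.07; 30.2, 32.2, 31.4 and 30.3 CPM, wild-type first). It was largest for MRPL39 (1.87; 8.68, 12.05, 11.3 and 6.46 CPM), which was highest in wild-type replicate 2 and lowest in mutant replicate 2, with overlapping groups. Counts of a member in a library ran from 49 to 1322, so counting error alone gives a coefficient of variation of 14.3% at the lowest and 2.75% at the highest. MRPL14, MRPL39, MRPL43, MRPL58, MRPS18B, MRPS18C and the members listed only for their groups' lack of overlap were named after their values were seen.

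Other genes that build or use the mitochondrial ribosome did not pass either. Of the 5 subunits named otherwise, 0 passed by any of the 3 tools, and edgeR put 0 below an unadjusted p of 0.05. AURKAIP1, a small-subunit protein, was 29.4 and 24.995 CPM in wild-type and 22.1 and 21.5 CPM in mutant libraries (-0.32, SE 0.16, adjusted p = 0.398). GADD45GIP1, a large-subunit protein, was 23.5 and 27.8 against 31.5 and 27.8 CPM (0.21, SE 0.16).

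Among 26 assembly and rRNA-modifying factors tested, 0 passed by any of the 3 tools (median 0.04). By edgeR 3 were below an unadjusted p of 0.05 (1 higher, 2 lower), as were 13.4% of all genes tested. MALSU1, which keeps the unfinished large subunit from joining the small one, was 10.5 and 10.7 CPM in wild-type and 6.79 and 6.60 CPM in mutant libraries. MALSU1 was named for its small p, and its groups did not overlap, as in 43.1% of all genes tested (-0.66, SE 0.23, adjusted p = 0.151). MTG1, a GTPase of large-subunit assembly, was 31.0 and 22.2 against 21.8 and 17.1 CPM (-0.45, SE 0.18, adjusted p = 0.224). When single libraries were left out, it passed without wild-type replicate 2 and in no other case (-0.67, adjusted p = 0.0297).

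None of 16 translation and mRNA-handling factors tested passed by any of these tools, nor were any at an unadjusted p under 0.05 (median 0.07). The initiation factor MTIF2 had a log2 fold change of 0.29 (adjusted p = 0.514), and SLIRP, which stabilises mitochondrial mRNA, 0.27 (adjusted p = 0.570; -0.01 without wild-type replicate 2). Of 18 mitochondrial tRNA synthetases and related enzymes tested, 0 passed and 14 were above 0 (median 0.13). By edgeR 3 were at an unadjusted p under 0.05 (2 higher, 1 lower). Among all genes tested, 13.4% were at that level (5.64% higher, 7.75% lower) and 49.3% were above 0. The lower gene, LARS2, had 15 to 63 counts (-0.94, SE 0.41, adjusted p = 0.309) and was named after its values were seen. The arginyl-tRNA synthetase RARS2 was 11.5 and 10.7 CPM in wild-type and 18.1 and 16.2 CPM in mutant libraries (0.62, SE 0.19, adjusted p = 0.0908). The asparaginyl-tRNA synthetase NARS2 was 10.8 and 11.0 against 15.1 and 14.9 CPM (0.46, SE 0.20, adjusted p = 0.282). In both, named for their small p, the groups did not overlap, as in 43.1% of all genes tested.

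Regulators of mitochondrial transcription and biogenesis were mixed, with 0 of 14 past the test, 1 higher and 1 lower at an unadjusted p under 0.05 by edgeR (median 0.06). Of all genes tested, 5.64% were higher and 7.75% lower at that level. MYC, a transcription factor that promotes ribosome production, was 18.9 and 19.8 CPM in wild-type and 25.7 and 28.3 CPM in mutant libraries (0.48, SE 0.16, adjusted p = 0.129). The coactivator PPARGC1B was 16.5 and 17.02 against 10.0 and 13.9 CPM (-0.48, SE 0.20, adjusted p = 0.252). For 14 genes of import and chaperones and 9 taken as markers of mitochondrial mass, 0 passed and 0 were at an unadjusted p under 0.05, with medians of 0.02 and -0.03. Neither DESeq2 nor voom called a gene in any of these lists. PMPCB, of the protease that trims imported proteins, stood at 0.28 (adjusted p = 0.412), TIMM50 at -0.16, VDAC2, a pore of the outer membrane, at -0.06 and IMMT, which shapes the cristae and adjoins MRPL35 in the annotation, at 0.09.

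The ribosomal proteins of the cytosol serve as the nearest comparison, and the difference between the lists was not tested. Of 74 cytosolic ribosomal protein genes, 73 had a log2 fold change above 0 with a median of 0.32, 10 rose and 1, RPL34, fell (-0.48, SE 0.13, adjusted p = 0.0334). Of all genes tested, 49.3% were above 0, 0.661% rose and 1.57% fell. The call of RPL34 was lost by DESeq2 (adjusted p = 0.0669), by voom (adjusted p = 0.0521) and in edgeR fits without wild-type replicate 1, mutant replicate 1 or mutant replicate 2 (adjusted p = 0.0578 to 0.462). RPL4 rose from 578 and 501 to 852 and 760 CPM (0.58, SE 0.11, adjusted p = 0.00258). The other risen genes were RPL5, RPL10, RPL13A, RPL32, RPLP0, RPS3A, RPS12, RPS19 and RPS27, with 0.44 to 0.66. By edgeR, the number that rose was 18 without wild-type replicate 1, 1 without wild-type replicate 2, 1 without mutant replicate 1 and 28 without mutant replicate 2. Of the 10, those that kept their call numbered 8, 0, 1 and 9 in the same order. The number that rose was 20 with the replicate block and 26 with no filter on low counts. These genes have many pseudogenes, so their values are uncertain where reads could be shared.

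Within each library, summed CPM of the mitochondrial ribosomal proteins divided by that of the cytosolic ones was 0.139 and 0.158 in wild-type and 0.115 and 0.125 in mutant replicates 1 and 2. Both mutant ratios were below both wild-type ratios. Against 63 respiratory chain genes tested (22 above 0, 41 below, 0 called by any of the 3 tools, 0 below an unadjusted p of 0.05 by edgeR, median -0.05), the ratio over all 68 rows was 0.425 and 0.449 in wild-type and 0.452 and 0.472 in mutant libraries. Those groups did not overlap either, though by a margin smaller than the gap between the wild-type libraries. These ratios were not tested. NDUFB6, of complex I, was 0.25 (adjusted p = 0.406), and COX6B2, a cytochrome oxidase subunit, -0.86 (adjusted p = 0.405) at 17 to 33 counts.

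**Figure D4:**
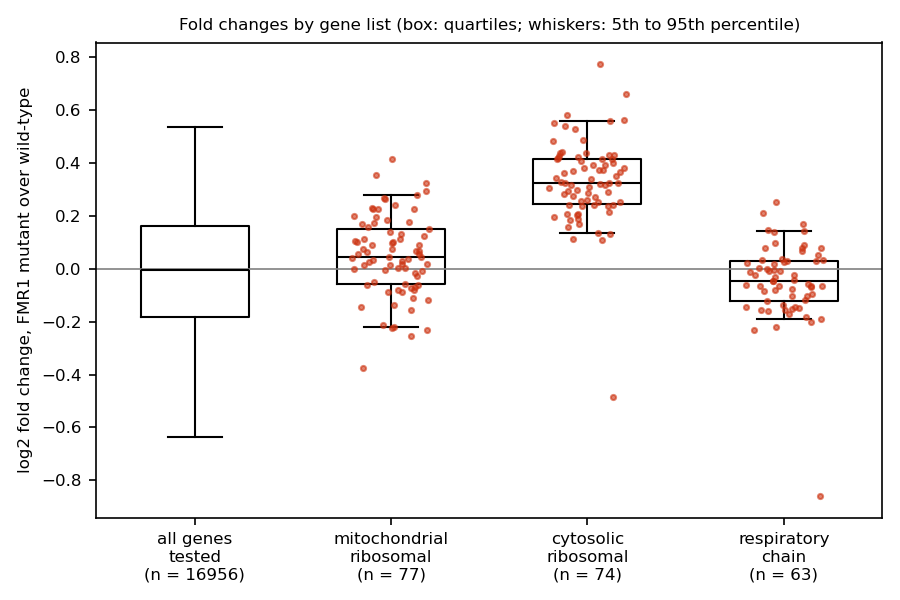
Log2 fold change, FMR1 mutant over wild-type (vertical axis), of all 16956 genes tested and of 77 mitochondrial ribosomal, 74 cytosolic ribosomal and 63 respiratory chain genes. Boxes show quartiles, whiskers the 5th to 95th percentile and points single genes. The medians are -0.00, 0.04, 0.32 and -0.05.

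**Figure D5:**
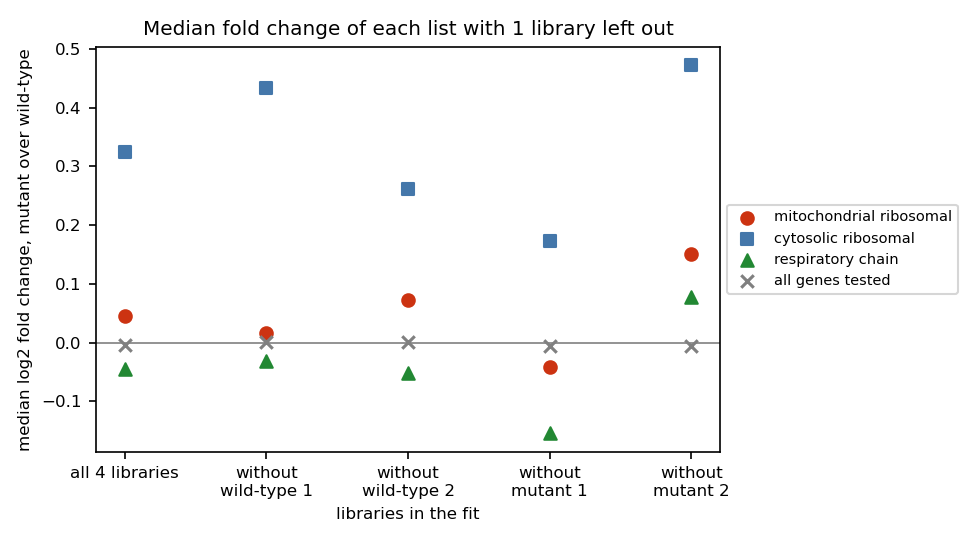
Median log2 fold change of each list (vertical axis) with all 4 libraries and with each library left out (horizontal axis). The mitochondrial ribosomal median moves from -0.04 without mutant replicate 1 to 0.15 without mutant replicate 2, while the cytosolic one stays between 0.17 and 0.47.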

How the data were processed

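Per the labels' protocols, directional libraries were built from poly(A) RNA after TRIzol extraction and DNase I digestion. Trimmomatic 0.38 and STAR 2.7.10a appear in the submitters' processing notes. Not given in the sources used here are the counter, its strand setting, the build and the annotation. Whole-number counts per gene were deposited by the authors without normalization, and columns were matched to libraries by the names in the labels. In R 4.3.3, genes passing filterByExpr (minimum count 10; 16956 genes) were scaled by TMM and compared with edgeR 4.0.16 (quasi-likelihood test, robust = TRUE, Benjamini-Hochberg adjustment over all genes tested). SE is the size of the log2 fold change over the square root of F. Mean CPM is given with its SD. The test was checked on simulated counts with changes set in some genes. It recovered 23.9% of those at a log2 fold change of 0.5, 76.1% at 1 and 95.5% at 2. Of its 137 calls 7 were false, and with no change set it made 0 calls. Replicate chi-squares per degree of freedom over all genes were 7.28 and 6.90, above sampling noise. Counting error covers counts only, and no molecular identifiers are named in the labels.

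The members and lists were chosen with earlier results of these data known. Named were FMR1, members at an unadjusted p under 0.05, 8 members per direction by smallest p, the most and least counted of each subunit, MRPS36, MRPS30 and MRPS18A, and per further list the passing genes or the 2 of smallest p. Alternatives were RLE and upper-quartile scaling, DESeq2 1.42.0 on all rows, limma-voom 3.58.1, robust = FALSE, no filter, a mean of 1 CPM, the replicate block, each library left out (the genes tested kept fixed) and an adjusted p of 0.1. No reference sequence was used, and 75 of 77 symbols matched the RefSeq table, used for neighbours only.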

Additional observations from a re-analysis of the deposited data

How the results depend on the processing

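The count of mitochondrial ribosomal protein genes past the test was 0 under each alternative run. At an unadjusted p under 0.05 there were 2 (1 by DESeq2, 3 by voom, 3 without a low-count filter, 3 with the replicate block, and 3 to 8 with 1 library left out). Their median log2 fold change of 0.04 was 0.04 to 0.05 under the other scalings, tools and filters, and -0.042 to 0.15 with 1 library left out, where the number above 0 was 34 to 60. The number of all genes past the test was 378 (244 by DESeq2, 633 without a low-count filter, 624 at an adjusted p of 0.1, and 163 to 562 with 1 library left out). MRPS36 stood at 0.00097 with RLE scaling, 0.0038 with upper-quartile scaling and 0.00096 by DESeq2, on the other side of 0 from the main value of -0.0025. MRPS18A did so at -0.0080 by voom and -0.0046 with the replicate block. With 1 library left out, signs also turned for MRPS28 (-0.25 to 0.19), MRPS36 (-0.18 to 0.16), MRPS18A (-0.16 to 0.15), MRPL3 (-0.23 to 0.044), VDAC2 (-0.16 to 0.029), SLIRP (-0.0075 to 0.61), IMMT (-0.026 to 0.20) and FMR1 (-0.022 to 0.53). The cause was not tested. Replicate numbers are shared between groups, but same-numbered libraries did not deviate together (r = 0.03 over 16956 genes). With the replicate block 493 genes passed, 0 of them mitochondrial ribosomal, with a member median of 0.04. Counting error alone is 14.3% at the lowest member count and 2.75% at the highest, as a coefficient of variation.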
